A study of Mus musculus with 6 samples.

Results

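The libraries compared here were those of 4 mouse induced pluripotent stem cell (iPSC) lines and of 1 embryonic stem cell (ESC) culture, which together are 5 of the 6 libraries of the series. Every gene of the deposited count table entered, and a gene was followed where the level in ESC was outside the range of the 4 lines. This held for 10827 of 16435 genes tested (65.9%), with 5462 higher (33.2%) and 5365 lower (32.6%) in the lines. The sign of the difference was thus fixed for these genes by the way they were chosen, and only the edgeR test of the counts is given as a test. The iPSC lines were control lines 3 and 7 and palmitoylcarnitine (PC) lines 5 and 13, named after the acyl carnitine that carries palmitate into mitochondria. The ESC library is titled B6 with the source name B6/blu, and the remaining library came from mouse embryonic fibroblasts (MEF) and serves as a reference for fibroblast genes. Per the labels' protocols, ESC and iPSC shared a serum medium with leukemia inhibitory factor (LIF) and a feeder layer of mitomycin C-treated fibroblasts. The sources used here do not give the strains, the reprogramming method and factors, or the dose and timing of palmitoylcarnitine. Whether the lines derive from different animals or cultures is not in the labels, and the p-values therefore speak only of the scatter among these libraries, which may be technical.

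Pluripotent cells are held by a core of transcription factors with Pou5f1, Sox2 and Nanog at its centre, and mouse cultures grown with LIF and serum contain cells close to the inner cell mass as well as rarer cells that express genes of the 2-cell embryo. Klf4 and Myc are classical reprogramming factors together with Pou5f1 and Sox2. Reprogramming of fibroblasts passes through a mesenchymal-to-epithelial transition, in which adhesion genes such as Cdh1 and Epcam are switched on and the splicing regulators Esrp1 and Esrp2 appear.

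Library totals lay between 26.51 M and 27.99 M assigned reads, and 17201 to 17463 genes had a read in ESC and the iPSC lines. Where no read was seen, the limit is 3 reads in a library, or 0.107 to 0.113 reads per 1 M, for counting error only. Levels below are RPKM, reads scaled by gene length and library total, and differences are log2 fold changes of the counts with their standard error (SE). The ESC level rests on 1 library, which the model assumes to vary like the iPSC lines. The core pluripotency genes were high in all 5 libraries, as their labels say. The MEF library went against its label in part: Pou5f1 was at 158 RPKM and Sox2 at 88.2 RPKM there, while Nanog was at 0.0482 RPKM, and its levels of Klf4 and Myc are given with that limit. In these bulk samples, fewer cells of a type and less RNA per cell cannot be told apart.

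Between the iPSC lines and ESC, 1713 genes differed, which is 10.4% of the genes tested, by edgeR's quasi-likelihood test with a Benjamini-Hochberg adjusted p under 0.05. The lines were higher in 774 of these (4.71%) and lower in 939 (5.71%), at least 2-fold so in 579 and 564. Those shares of all tested genes, 4.71% higher and 5.71% lower, are the background for the counts in each gene list below. In each of the 1713 the lines did not overlap ESC. The test uses the same values and takes its scatter from these lines, so this adds no support to the calls. The same holds for the single genes below. In 746 of the 1713 (43.5%) every line differed from ESC at least 2-fold. Among the other genes, 9114 had all lines on one side without passing the test and 5608 had lines on both sides. The median difference over all tested genes was 0.03 on the log2 scale. At an unadjusted p under 0.05 there were 4899 genes, and a gene without a call is not shown to be at equal levels. The plot of gene levels places ESC against the mean of the lines.

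**Figure D1:**
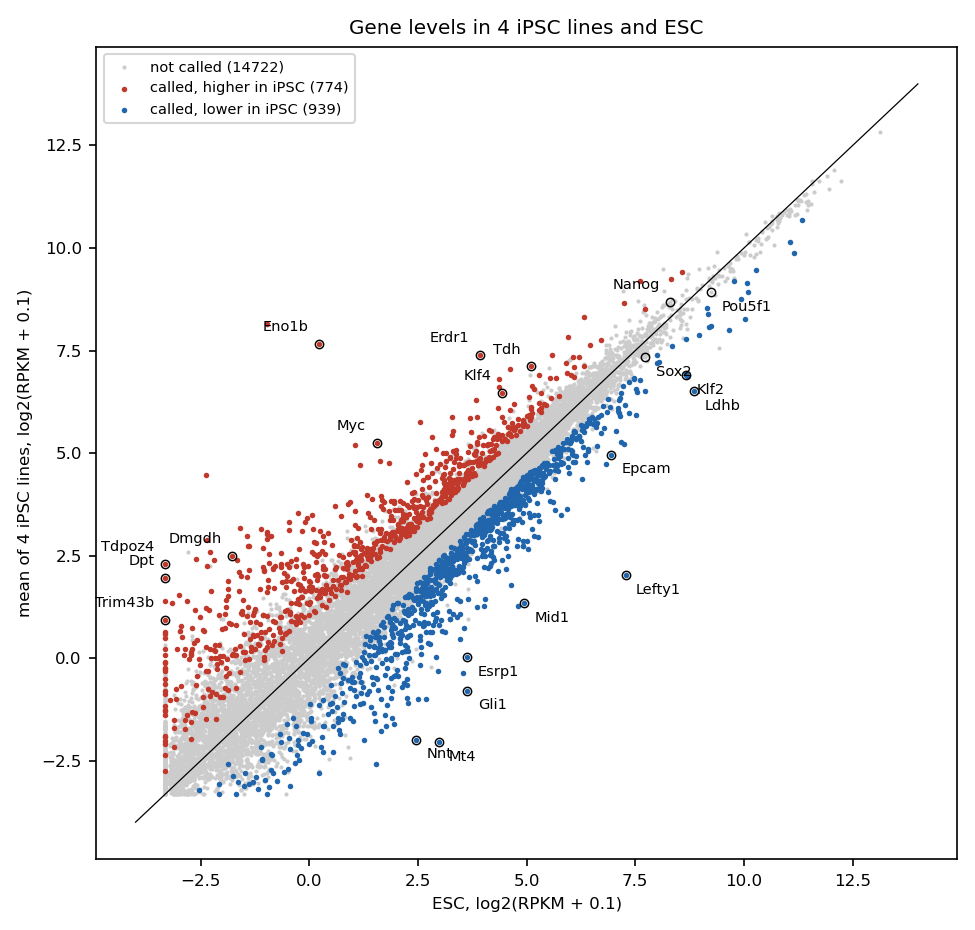
Level of each of the 16435 tested genes in ESC (x axis) and mean level of the 4 iPSC lines (y axis), both as log2(RPKM + 0.1); red points are the 774 genes called higher and blue points the 939 called lower in iPSC, grey points were not called, and the line marks equal levels. Eno1b, Myc and Dmgdh lie far above the line and Lefty1, Esrp1, Gli1 and Nnt far below it, while Pou5f1, Sox2 and Nanog lie near it.

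Klf4 and Myc were higher in every iPSC line than in ESC, whereas the related factors Klf2 and Mycn were lower. Klf4, a Krüppel-like zinc finger factor (chr4:55527137-55532475, GRCm38), was at 21.4 RPKM in ESC, at 96.5 and 95.4 RPKM in control iPSC 3 and 7, and at 70.9 and 91.5 RPKM in PC iPSC 5 and 13. The lines did not overlap ESC, and the difference was 2.00 ± 0.22 (SE; adjusted p = 0.00882, edgeR). Myc, the basic helix-loop-helix factor of growth and ribosome synthesis (chr15:61985341-61990361), was at 2.82 RPKM in ESC and at 33.1, 37.2, 24.2 and 57.4 RPKM in the same order of lines. Every line exceeded ESC, by 3.71 ± 0.56 in the fit (adjusted p = 0.0173, edgeR). The MEF library, with the limit given above, held Klf4 at 124 RPKM and Myc at 154 RPKM, so that the mean of the lines came to 71.7% and 24.7% of it, against 17.3% and 1.83% in ESC. Reads covered 98.5% to 99.3% of the Klf4 model in the lines and 98.3% in ESC, and 79.0% to 85.1% of Myc in the lines and 87.1% in ESC. These counts do not separate an endogenous transcript from an introduced copy, and that was not tested.

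Klf2, which acts beside Klf4 in naive cells, was at 407 RPKM in ESC and fell to 106, 124, 135 and 112 RPKM in control 3, control 7, PC 5 and PC 13 (-1.81 ± 0.15, adjusted p = 0.00611, edgeR). Mycn, the N-myc paralogue of Myc, was at 33.5 RPKM in ESC and at 8.79, 8.82, 18.7 and 6.37 RPKM in the lines. PC iPSC 5 was the nearest to ESC, and the difference passed narrowly (-1.72 ± 0.42, adjusted p = 0.0491, edgeR). The third paralogue, Mycl, rose from 3.85 RPKM in ESC to between 7.97 and 14.8 RPKM (1.60 ± 0.31). Of the 11 genes in the list of reprogramming factors and the Myc family, 3 rose, 2 fell and the median was 0.08.

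The core factors did not pass the test. Pou5f1, the octamer-binding factor Oct4, was at 602 RPKM in ESC and at 531, 487, 401 and 517 RPKM in the lines (-0.36 ± 0.19, adjusted p = 0.261, edgeR). Its HMG-box partner Sox2 was at 213 RPKM and at 180, 153, 155 and 160 RPKM (-0.44 ± 0.16, adjusted p = 0.121, edgeR). Nanog, the homeodomain factor of naive cells, was at 316 RPKM in ESC and at 388, 394, 473 and 401 RPKM (0.34 ± 0.16, adjusted p = 0.209, edgeR). All 4 lines lay below ESC for Pou5f1 and Sox2 and above it for Nanog, but by less than the test could separate.

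Around this core, 7 of 36 naive and general pluripotency genes rose and 5 fell, with a median of 0.17. Tdh, the threonine dehydrogenase on which mouse ESC depend, rose from 34.2 RPKM to 181, 137, 112 and 128 RPKM (1.97 ± 0.23, adjusted p = 0.00933, edgeR). Zfp42 (Rex1) rose from 67.2 RPKM to between 143 and 171 RPKM, Tbx3 from 21.6 RPKM to between 55.4 and 62.1 RPKM, and Tcl1 from 18.1 RPKM to between 31.0 and 54.4 RPKM. Dazl, an RNA-binding protein of germ cells, rose by 2.48 ± 0.56 and was highest in PC iPSC 5, at 75.2 RPKM against 7.02 RPKM in ESC. In the other direction, Sall1, a spalt zinc finger factor, fell from 21.4 RPKM to between 3.40 and 7.97 RPKM (-2.13 ± 0.24). Eras, an ES-cell Ras protein, fell from 8.11 RPKM to between 2.11 and 3.80 RPKM (-1.68 ± 0.35), and Fgf4, the autocrine growth factor of ESC, from 182 RPKM to between 84.3 and 103 RPKM, and the cell cycle factor Mybl2 (-0.78) and Stat3 were the other 2 that fell. The 24 formative and primed genes moved in both directions, with 2 higher (8.33%), 4 lower (16.7%) and a median of 0.11. All 4 lines lay above ESC in 9 of them and below it in 10. Zic5 and the POU factor Pou3f1 fell by 1.68 and 1.15, while Cdh2, N-cadherin, and Foxd3 rose by 1.08 and 1.07 on the log2 scale.

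**Figure D2:**
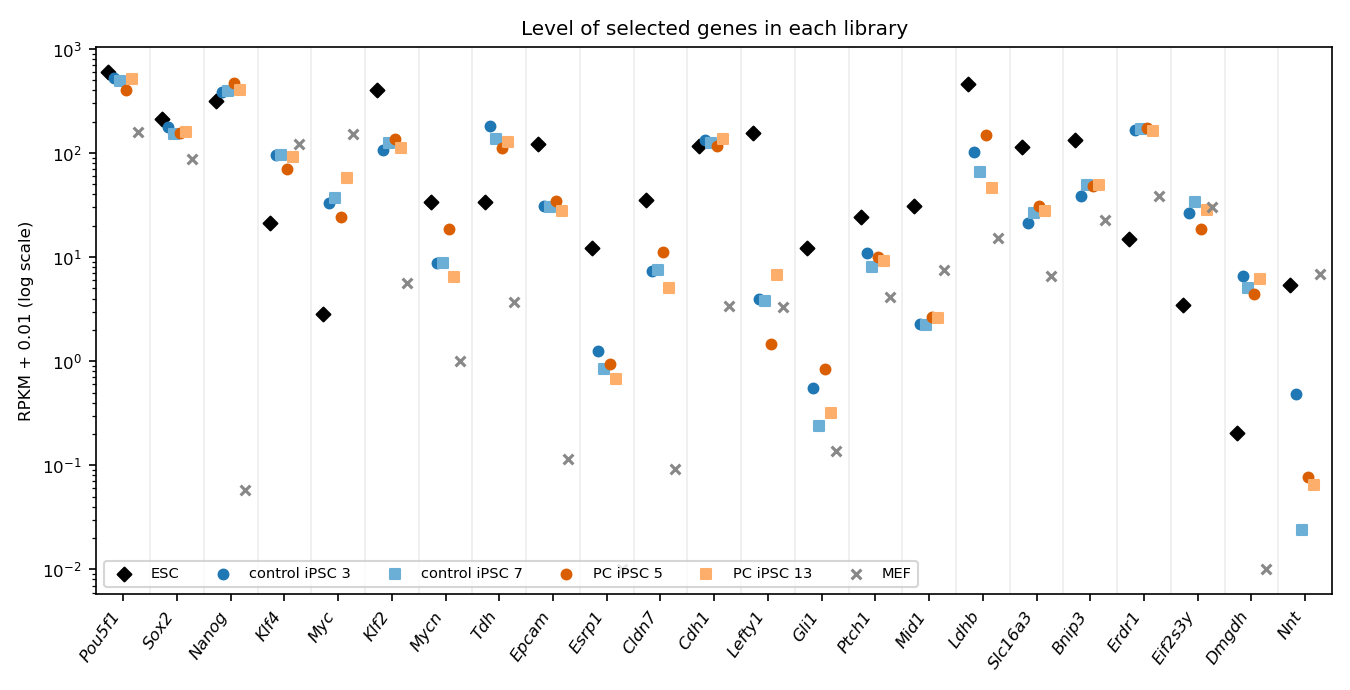
RPKM of 23 selected genes in each of the 6 libraries, on a log axis after adding 0.01; diamonds are ESC, circles and squares the 4 iPSC lines and crosses the MEF library, with 1 library per point and no error bars. The lines lie together and apart from ESC for Klf4, Myc, Epcam, Esrp1, Mid1 and Erdr1, and around ESC for Cdh1.

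Genes of the LIF and Stat3 pathway were lower. LIF signals through the Lifr and Il6st receptors to Stat3, which induces Socs feedback genes. Of 18 genes tested, 7 fell (38.9%, against 5.71% of all tested genes) and 0 rose, with a median of -0.45. Socs2 fell from 16.5 RPKM to between 5.16 and 8.07 RPKM (-1.47 ± 0.21), Lif from 6.37 RPKM to between 2.18 and 3.85 RPKM (-1.27 ± 0.28), and Socs3 from 45.9 RPKM to between 16.9 and 25.9 RPKM (-1.07 ± 0.21). Cish (-1.07), the receptor gene Lifr (-0.99), Stat3 itself (-0.95) and the kinase gene Pim3 (-0.70) made up the rest. Lif, Socs3 and Stat3 lie on chromosome 11, whose lower level is described below.

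Genes of the 2-cell-like state had the highest median of the 35 lists. This state, marked by Zscan4 and Tcstv genes, appears in a small share of mouse pluripotent cells. Of 33 genes tested, 19 rose and 0 fell, all 4 lines lay above ESC in 32 (33.2% of all tested genes did), and the median was 2.96. Zscan4f, a SCAN-domain zinc finger protein, was at 1.57 RPKM in ESC and rose to 7.17, 13.6, 9.78 and 13.5 RPKM in control 3, control 7, PC 5 and PC 13 (2.77 ± 0.48, adjusted p = 0.0222, edgeR). Tcstv3 rose from 0.734 RPKM to 6.76, 12.8, 9.41 and 17.0 RPKM (3.91 ± 0.67, adjusted p = 0.022, edgeR). Control iPSC 7 and PC iPSC 13 were the higher line of their group for both genes. No ESC read was assigned to Tdpoz4, Trim43b or Obox3. Against a floor of 3 reads in that library, the mean of the lines was at least 50.2-fold, 38.3-fold and 19.6-fold higher. Such a bound is for the mean, and single lines can lie below it. Tdpoz3 had 1 to 3 reads in ESC, which gives a ratio of 80.2 with a 95% counting interval of 22.1 to 664. Many of these genes belong to clusters of near-identical copies, so the split of reads between the copies is uncertain. Tdpoz3 and Zscan4c (2.91 ± 0.61) are named beside the others after their values were seen.

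The Rhox homeobox and the germ cell genes were counted separately. Of 12 Rhox homeobox genes tested, 3 rose and 0 fell. The fitted median was 2.10, and the medians of single lines were 0.41, 0.49, 1.32 and 0.98 in control 3, control 7, PC 5 and PC 13. Rhox5, a reproductive homeobox gene, went from 151 RPKM in ESC to 423, 389, 410 and 387 RPKM (1.38 ± 0.16, adjusted p = 0.0093, edgeR), Rhox13 rose by 4.31 ± 0.76 and Rhox1 by 2.25 ± 0.45. The lines agreed closely for Rhox5 and all stood above ESC. Of 47 germ cell and meiosis genes, 7 rose and 3 fell (median 0.32). Sycp1, a protein of the synaptonemal complex, rose from 1.24 RPKM to between 5.95 and 10.7 RPKM (2.67 ± 0.29), Tex13 by 4.12 ± 0.85 and Mageb4 by 3.32 ± 0.60. The recombinase Dmc1 fell by 0.85. Prdm1 (Blimp1), the factor that sets up primordial germ cell fate, fell from 3.58 RPKM to between 0.491 and 0.726 RPKM (-2.58 ± 0.29). The AP-2 factor Tfap2c, counted with the trophoblast and the germ cell genes, fell as well, from 60.7 RPKM to 12.2, 8.98, 19 and 8.75 RPKM (-2.37 ± 0.33, adjusted p = 0.015, edgeR).

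Epithelial adhesion and splicing genes were lower in the lines than in ESC. Epcam encodes an epithelial adhesion molecule that marks pluripotent cells (chr17:87635979-87651127). It was at 123 RPKM in ESC and at 31.0, 30.6, 34.4 and 28.0 RPKM in control 3, control 7, PC 5 and PC 13. The lines lay within a narrow band and well below ESC, with a difference of -2.03 ± 0.14 (adjusted p = 0.00305, edgeR). Esrp1, the epithelial splicing regulator (chr4:11331933-11386783), was at 12.3 RPKM in ESC and at 1.23, 0.827, 0.936 and 0.668 RPKM (-3.80 ± 0.25, adjusted p = 0.00305, edgeR). No line reached the ESC level. Its paralogue Esrp2 was at 2.11 RPKM in ESC and at 1.94, 1.99, 2.31 and 1.30 RPKM (-0.20 ± 0.37, adjusted p = 0.757, edgeR). The promoters of Epcam and of 2 further called genes of the group, the tight junction gene Cldn4 and the polarity gene Crb3, are shown because each carries the E-box CAGGTG at least 2 times. That motif is one that Snai and Zeb repressors are known to bind. The sequences are RefSeq promoter windows of GRCm38.p6, each of 300 bases around the start of the gene and read along the gene's strand, with CAGGTG or its reverse complement CACCTG in capitals: chr17:87635729-87636028 (plus strand) for Epcam, chr5:134946885-134947184 (minus strand) for Cldn4 and chr17:57061951-57062250 (plus strand, the first of 2 windows) for Crb3.
Epcam: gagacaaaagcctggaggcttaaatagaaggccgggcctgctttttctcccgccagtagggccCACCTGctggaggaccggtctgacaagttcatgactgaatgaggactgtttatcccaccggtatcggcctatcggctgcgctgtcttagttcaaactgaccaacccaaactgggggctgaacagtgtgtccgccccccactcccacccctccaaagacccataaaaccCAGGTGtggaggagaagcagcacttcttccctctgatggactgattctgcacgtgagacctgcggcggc
Cldn4: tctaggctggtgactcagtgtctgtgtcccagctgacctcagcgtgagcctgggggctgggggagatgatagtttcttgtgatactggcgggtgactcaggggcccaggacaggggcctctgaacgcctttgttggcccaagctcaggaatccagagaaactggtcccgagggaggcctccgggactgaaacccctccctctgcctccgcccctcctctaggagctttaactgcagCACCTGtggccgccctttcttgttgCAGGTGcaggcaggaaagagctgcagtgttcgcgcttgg
Crb3: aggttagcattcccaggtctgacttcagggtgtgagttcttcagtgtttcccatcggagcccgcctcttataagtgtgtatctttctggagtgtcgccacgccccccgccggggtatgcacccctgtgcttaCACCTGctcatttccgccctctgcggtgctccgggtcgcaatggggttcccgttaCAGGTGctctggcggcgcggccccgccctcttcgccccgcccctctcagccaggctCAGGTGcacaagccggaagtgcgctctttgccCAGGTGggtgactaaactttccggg

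On either strand, CAGGTG was found in the promoter of 20 of the 26 genes in this group with a RefSeq window (76.9%). Of the 16 called lower, 10 had a window, and all 10 held the motif. Among all tested genes with a window, 2851 of 12888 held it (22.1%). A gene counted where any of its windows matched. Such a match describes the letters in the window and shows no binding. Over the whole group, 16 of 43 tested genes fell and 0 rose. All 4 lines lay below ESC in 32 (32.6% of all tested genes did) and above it in 1, and the median was -1.09. The claudins, which seal tight junctions, fell together: Cldn7 from 35.7 RPKM to between 5.06 and 11.1 RPKM (-2.24 ± 0.33), Cldn4 from 150 RPKM to between 31.9 and 46.5 RPKM (-2.05 ± 0.19), Cldn3 by 1.98 and Cldn6 by 1.29 on the log2 scale. The keratin gene Krt19 fell from 17.8 RPKM to between 1.99 and 8.37 RPKM (-2.05 ± 0.49). Crb3 (-1.93), Tjp3 (-1.91), the clathrin adaptor Ap1m2 (-1.83), P-cadherin Cdh3 (-1.30), Pkp3 (-1.24), Grhl3 (-1.24), St14 (-1.19) and Pkp2 (-1.09) fell as well. Serpinb5 was listed at 0 in all lines and at 0.405 RPKM in ESC, at least 9.43-fold lower with 3 reads per line as the floor. Not every adhesion gene was lower. E-cadherin, Cdh1, was at 116 RPKM in ESC and at 132, 126, 116 and 136 RPKM in the lines (0.09 ± 0.17, adjusted p = 0.757, edgeR). Cldn7 and Krt19 lie on chromosome 11, while Epcam and Esrp1 do not. Of the repressors, Snai1 (1.22 ± 0.29) and Snai2 (1.74 ± 0.31) rose, Zeb1 was 1.10 ± 0.30 higher without passing (adjusted p = 0.0637, edgeR) and Zeb2 differed by 0.76 ± 0.48 (adjusted p = 0.327, edgeR). Cdh1, Esrp2, Zeb1 and Zeb2 were picked after their values were seen.

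**Figure D3:**
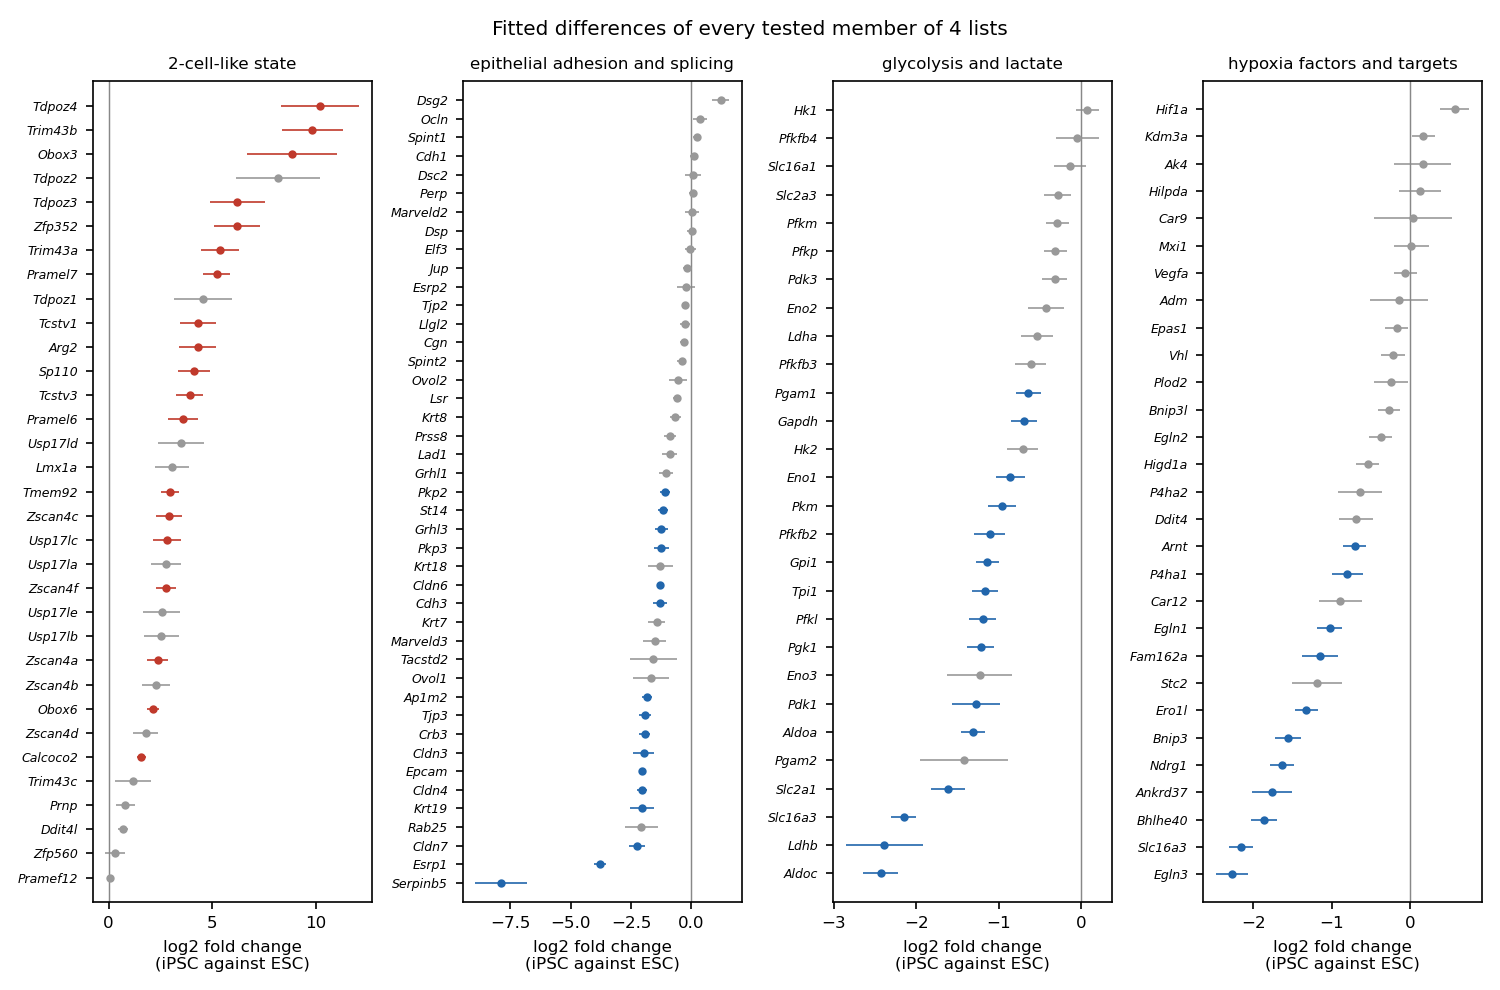
Fitted log2 fold change (iPSC against ESC) with its SE for every tested gene of 4 groups; red and blue points passed the test as higher and lower, grey points did not, and the vertical line marks no difference. Of 33 genes of the 2-cell-like state 19 were called higher, and of the 43 epithelial, 28 glycolysis and 29 hypoxia genes 16, 15 and 11 were called lower.

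Nodal and activin signalling, which runs through Smad factors and is held back by the Lefty proteins, lost most of the transcript of 1 inhibitor, while the ligand gene did not pass the test. Lefty1, a secreted Nodal antagonist (chr1:180935022-180938401), was at 155 RPKM in ESC and at 3.95, 3.74, 1.45 and 6.74 RPKM in control 3, control 7, PC 5 and PC 13. The lines spread over 2.05 log2 units among themselves yet all lay far below ESC (-5.32 ± 0.52, adjusted p = 0.00661, edgeR). Lefty2, the neighbouring paralogue, was at 56.4 RPKM in ESC and at 28.0, 15.8, 11.5 and 73.7 RPKM. PC iPSC 13 was above ESC and the others were below it, and the gene did not pass (-0.92 ± 0.78, adjusted p = 0.468, edgeR). Nodal was at 29.2 RPKM in ESC and between 28.9 and 47.2 RPKM in the lines, and its co-receptor Tdgf1 (Cripto) at 387 RPKM and between 163 and 283 RPKM (-0.84 ± 0.23, adjusted p = 0.0632, edgeR). These 3 genes were added after their values were seen. Of 25 genes in the pathway, 5 fell and 2 rose (median -0.02). Among them, Skil, a Smad co-repressor, fell by 1.61 ± 0.14, the co-repressors Tgif1 and Ski by 0.75 and 0.61, and the activin antagonist Fst rose from 1.02 RPKM to between 3.07 and 4.62 RPKM (1.8 ± 0.29), as did the convertase Pcsk6 (0.86 on the log2 scale).

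Other signalling pathways changed in single genes. In the FGF pathway, 3 of 27 genes fell and 1 rose (median -0.34): the receptor Fgfr2 fell from 5.72 RPKM to between 0.592 and 1.03 RPKM (-2.90 ± 0.24), the ligand Fgf17 by 2.61 ± 0.50 and the inhibitor Spred2 by 0.81 ± 0.14, and the feedback inhibitor Spry2 rose by 1.16 ± 0.22. The main FGF receptor gene of these cells, Fgfr1, was at 28.0 RPKM in ESC and between 23.8 and 28.3 RPKM in the lines, as read after the fact. Among 24 BMP ligands and Id genes, 3 rose (12.5%) and 1 fell (4.17%), with a median of 0.11. Bmp4, the ligand, rose from 0.646 RPKM to 3.34, 3.46, 3.85 and 3.77 RPKM (2.43 ± 0.27, adjusted p = 0.00882, edgeR), its antagonist Grem1 by 1.69 ± 0.21, and the BMP target Id3 from 16.0 RPKM to between 37.9 and 48.7 RPKM (1.36 ± 0.18), whereas Id4 fell by 1.30 ± 0.25. For Bmp4 the MEF library stood at 22.1 RPKM and for Id3 at 169 RPKM. In the WNT list, 2 of 29 genes rose (6.90%) and 4 fell (13.8%), with a median of 0.15. The ligand genes Wnt7b and Wnt3 fell by 3.20 ± 0.47 and 2.64 ± 0.56, and the receptor genes Lgr4 and Fzd7 by 1.05 ± 0.13 and 0.93 ± 0.15. The caudal homeobox gene Cdx1 rose from 2.97 RPKM to 29.5, 33.4, 15.4 and 32.6 RPKM (3.17 ± 0.49, adjusted p = 0.0184, edgeR), and cyclin D1, Ccnd1, rose by 1.06 ± 0.25.

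A Hedgehog target was among the genes with the largest decrease. Gli1, a transcription factor that is itself induced by Hedgehog signalling (chr10:127329882-127341579), was at 12.3 RPKM in ESC and at 0.544, 0.227, 0.828 and 0.312 RPKM in control 3, control 7, PC 5 and PC 13. All lines were far below ESC (-4.76 ± 0.46, adjusted p = 0.00633, edgeR). The receptor gene Ptch1, also a target, was looked up after this value was seen. It fell from 24.1 RPKM to 11, 7.98, 9.96 and 9.27 RPKM (-1.38 ± 0.18, adjusted p = 0.0126, edgeR).

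Glycolytic genes were lower in all lines. They turn glucose into pyruvate and lactate, the main carbon route of pluripotent cells. Of 28 genes tested, 15 fell (53.6%, against 5.71% of all tested genes) and 0 rose. All 4 lines lay below ESC in 25 (32.6% of all tested genes did) and above it in 1, with a median of -0.91. The summed level of the list was 13491 RPKM in ESC and 7533, 7329, 6968 and 7298 RPKM in control 3, control 7, PC 5 and PC 13. The lines were thus close to each other and far from ESC. Along the pathway, the glucose transporter Slc2a1 fell from 182 RPKM to 65.5, 57.5, 73.2 and 48.2 RPKM (-1.62 ± 0.20, adjusted p = 0.0115, edgeR). Gpi1 (-1.14), Pfkl (-1.20), Aldoa (-1.31), Aldoc (-2.43), Tpi1 (-1.17), Gapdh (-0.69), Pgk1 (-1.22), Pgam1 (-0.64), Eno1 (-0.86) and Pkm (-0.96) stand for the steps that follow. The aldolase Aldoc, a minor form beside Aldoa, fell from 32.3 RPKM to between 5.06 and 7.25 RPKM, and Aldoa from 2258 RPKM to between 910.2 and 958.6 RPKM. At the lactate end, Ldhb, the heart form of lactate dehydrogenase, was at 460 RPKM in ESC and at 102, 66.2, 150 and 46.5 RPKM (-2.39 ± 0.47, adjusted p = 0.0296, edgeR), while Ldha was at 866 RPKM and between 531 and 677 RPKM without passing (-0.53 ± 0.19, adjusted p = 0.119, edgeR). The lactate exporter Slc16a3 was at 114 RPKM in ESC and at 21.0, 26.3, 31.1 and 27.7 RPKM (-2.15 ± 0.15, adjusted p = 0.00389, edgeR). The pyruvate dehydrogenase kinase gene Pdk1 (-1.28 ± 0.29) and the regulator Pfkfb2 (-1.11) fell too, and the hexokinase Hk2 was lower without passing (-0.71 ± 0.19, adjusted p = 0.0592, edgeR). Hk2 and Ldha were added after their values were seen.

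Targets of the hypoxia factor Hif1a fell in the same lines. Of 29 genes tested, 11 fell (37.9%, against 5.71% of all tested genes) and 0 rose (median -0.64), and Slc16a3 counts in both groups. Egln3, an oxygen-sensing prolyl hydroxylase that Hif1a induces, fell from 20.1 RPKM to 3.15, 4.68, 4.94 and 4.35 RPKM (-2.28 ± 0.20, adjusted p = 0.00611, edgeR). Bhlhe40, a repressor, fell from 48.6 RPKM to between 10.9 and 16.0 RPKM (-1.86 ± 0.17), and the mitophagy gene Bnip3 from 132 RPKM to 38.4, 49.2, 48.4 and 49.1 RPKM (-1.56 ± 0.16, adjusted p = 0.00744, edgeR). Ankrd37 (-1.76), Ndrg1 (-1.63), Ero1l (-1.32), Fam162a (-1.15), Egln1 (-1.03), P4ha1 (-0.80) and Arnt (-0.71) made up the rest of the 11. The factor gene Hif1a itself did not pass (0.57 ± 0.19, adjusted p = 0.102, edgeR), and neither did its well-known target Vegfa, at 37.6 RPKM in ESC and between 34.4 and 39.4 RPKM in the lines. Bnip3, Hif1a, Vegfa, Egln1 and P4ha1 were named after their values were seen. The promoters of Bnip3, Ankrd37 and Slc16a3 are shown because each holds the core of a hypoxia response element, ACGTG, 2 times, counting both strands. They come from RefSeq windows of the same build and span: chr7:138909457-138909756 (minus strand) for Bnip3, chr8:45999801-46000100 (minus strand) for Ankrd37 and chr11:120948817-120949116 (plus strand) for Slc16a3. Capitals mark ACGTG or its reverse complement CACGT, which overlap in the single CACGTG of Bnip3.
Bnip3: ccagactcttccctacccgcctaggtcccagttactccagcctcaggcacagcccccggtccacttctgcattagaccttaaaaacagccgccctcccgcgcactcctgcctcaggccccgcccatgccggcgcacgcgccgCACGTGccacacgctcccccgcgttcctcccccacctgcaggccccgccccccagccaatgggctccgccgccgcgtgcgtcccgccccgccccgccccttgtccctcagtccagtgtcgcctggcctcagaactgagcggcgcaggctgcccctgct
Ankrd37: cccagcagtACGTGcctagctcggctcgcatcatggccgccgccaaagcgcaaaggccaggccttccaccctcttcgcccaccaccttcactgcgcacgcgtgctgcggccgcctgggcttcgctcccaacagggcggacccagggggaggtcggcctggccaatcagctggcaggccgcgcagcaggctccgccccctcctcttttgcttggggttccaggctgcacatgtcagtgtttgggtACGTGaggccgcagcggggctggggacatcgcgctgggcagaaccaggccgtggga
Slc16a3: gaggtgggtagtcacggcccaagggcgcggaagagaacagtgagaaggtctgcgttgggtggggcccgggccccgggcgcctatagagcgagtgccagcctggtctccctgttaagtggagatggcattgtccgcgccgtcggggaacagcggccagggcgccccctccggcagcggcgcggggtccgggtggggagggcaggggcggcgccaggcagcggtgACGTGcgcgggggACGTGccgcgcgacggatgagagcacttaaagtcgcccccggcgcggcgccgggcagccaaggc

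The ACGTG core was present in 16 of 27 promoters of the glycolysis group (59.3%) and in 9 of the 15 called lower. It was present in 18 of 24 promoters of the hypoxia group (75%) and in 8 of the 9 called lower that had a window. Among all tested genes with a window, 3559 of 12888 held it (27.6%). The letters show no binding of the factor. Aldoc and Slc16a3 lie on chromosome 11, and 4 glycolysis and 3 hypoxia genes in all do so.

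Respiratory chain genes were not called. None of 67 nuclear genes of the respiratory chain passed the test in either direction with edgeR, and their median was 0.14 (43 above 0 and 24 below). Atp5b, the catalytic beta subunit of ATP synthase, was at 1247 RPKM in ESC and between 1121 and 1213 RPKM in the lines. Nnt, the nicotinamide nucleotide transhydrogenase of the inner membrane, which makes NADPH (chr13:119335527-119409257), was the exception among redox genes. It was at 5.39 RPKM in ESC and 6.92 RPKM in MEF, and at 0.473, 0.0141, 0.0674 and 0.055 RPKM in control 3, control 7, PC 5 and PC 13 (-5.49 ± 0.81, adjusted p = 0.0166, edgeR). In reads this was 807 in ESC against 70, 2, 10 and 8 in the lines, and reads covered 55.1% of the gene in ESC, 91.6% in MEF and between 2.80% and 34.8% in the lines. As background, the C57BL/6J substrain carries a known deletion within Nnt, while other C57BL/6 substrains have the whole gene. The strain of the lines is not given in the sources used here, and its part was not tested. Among 22 mitochondrial redox genes 3 fell and 0 rose (median -0.05), with Hmox1, heme oxygenase, at -0.91 ± 0.14 and Gpx4, a lipid peroxide reductase, at -0.61 ± 0.14.

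The carnitine shuttle and fatty acid oxidation genes, to which palmitoylcarnitine is a substrate, rose in 3 of 37 (8.11%) and fell in 2 (5.41%), against 4.71% and 5.71% of all tested genes (median -0.03). Those shares are near the background. The thiolase Acaa2 rose from 17.1 RPKM to 37.4 and 34.7 RPKM in the control lines and to 40.1 and 35.6 RPKM in the PC lines (1.07 ± 0.16, adjusted p = 0.0168, edgeR), and Hadhb, the beta subunit of the trifunctional protein, from 14.8 RPKM to between 24.7 and 27.9 RPKM (0.79 ± 0.16), beside the acyl-CoA dehydrogenase Acadm (0.64 ± 0.14). The carnitine acetyltransferase Crat (-0.70 ± 0.16) and the acyl-CoA ligase Acsl4 (-0.78 ± 0.17) fell. Among 10 metallothionein and metal transport genes, 3 fell and 1 rose (median -0.70). Mt1, a metal-binding protein, fell from 409 RPKM to 162, 91.2, 136 and 77.9 RPKM (-1.86 ± 0.32, adjusted p = 0.0222, edgeR), Mt4 from 7.76 RPKM to between 0 and 0.37 RPKM, and the zinc exporter Slc30a1 by 0.90 ± 0.22, while the importer Slc39a8 rose by 1.52 ± 0.36.

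Fibroblast genes were higher in the lines. Of 45 tested, 16 rose (35.6%, against 4.71% of all tested genes) and 1 fell (2.22%, against 5.71%). All 4 lines lay above ESC in 30 (33.2% of all tested genes did), and the median was 1.19. Postn, periostin of the fibroblast matrix, was at 20.5 RPKM in ESC, at 48.7, 141, 131 and 124 RPKM in control 3, control 7, PC 5 and PC 13, and at 283 RPKM in MEF (2.39 ± 0.57, adjusted p = 0.047, edgeR). This call was lost at a mean RPKM of at least 1 (adjusted p = 0.054), without PC iPSC 5 (0.0677) and without PC iPSC 13 (0.0689). Col1a2, a type I collagen chain, went from 62.0 RPKM to 136, 254, 284 and 233 RPKM (1.82 ± 0.38) with 1666 RPKM in MEF, and the proteoglycan gene Lum from 0.311 RPKM to between 1.27 and 3.0 RPKM (2.65 ± 0.44) with 161 RPKM in MEF. Dpt, dermatopontin, was listed at 0 in ESC, and the mean of the lines was at least 57.8-fold higher, again against 3 reads. Control iPSC 3 was the lowest line for these genes. The summed level of the list was 2548 RPKM in ESC, 2989 RPKM in control iPSC 3, between 4982 and 5962 RPKM in the other lines and 18104 RPKM in MEF. The median list gene stood at 15.3% of its MEF level in the lines and at 7.56% in ESC. The share differed between genes: 54.4% for Col1a1 and 39.3% for Postn but 4.29% for Col3a1 and 1.28% for Lum in the lines. Aldh3a1, at 728 RPKM in MEF, went the other way, from 4.51 RPKM in ESC to between 0.371 and 1.13 RPKM (-2.78 ± 0.17). Of the list, Dpt was at 0 in ESC and Mmp3 in control iPSC 7, and the rest had reads in all 6 libraries. The part of feeder RNA in the other results was not tested. Among all genes called higher, MEF exceeded the other 5 libraries in 354 (45.7%), against 22.7% of those called lower and 39.2% of all tested genes.

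Markers of other cell types were counted in the same way. Of 17 macrophage genes, 4 fell and 0 rose (median -1.12), and their summed level was 76.3 RPKM in ESC, between 17.0 and 23.7 RPKM in the lines and 1012 RPKM in MEF. The lysosomal glycoprotein gene Cd68 fell from 55.2 RPKM to between 7.77 and 13.8 RPKM (-2.38 ± 0.19), and it made up most of the ESC sum. The lysozyme gene Lyz2 fell from 11.5 RPKM to between 3.80 and 6.27 RPKM (-1.41 ± 0.20), Mpeg1 from 1.75 RPKM to between 0.416 and 0.747 RPKM (-1.64 ± 0.18), and the complement gene C1qc from 1.95 RPKM to between 0.346 and 0.781 RPKM (-1.81 ± 0.40), a call that edgeR lost with MEF left out (adjusted p = 0.087). Ptprc, Tyrobp, Aif1 and Lyz1 were at 0 in at least 1 line, Adgre1 was at 0.165 RPKM and Csf1r at 0.379 RPKM in ESC. These macrophage genes were named after their values were seen, and their part in the other results was not tested. Of 14 endothelial genes 2 rose, Tie1 (2.80 ± 0.65), an endothelial receptor kinase, and Eng (0.86 ± 0.15), and 0 fell (median 0.10). The summed level of the endoderm list was 396 RPKM in ESC, between 439 and 787 RPKM in the lines and 1867 RPKM in MEF. Most of it was Sparc, a matrix gene that was not called. Sparc was at 284 RPKM in ESC, between 321 and 612 RPKM in the lines and 1344 RPKM in MEF. The sum of the ectoderm list was 63.2 RPKM in ESC against 26.5 to 43.3 RPKM in the lines. That of the mesoderm list was 12.0 RPKM against 9.06 to 13.3 RPKM. Of 18 ectoderm genes 4 fell and 1 rose (median -0.93), with the proneural factor Neurog1 at 4.45 RPKM in ESC and between 0.111 and 1.54 RPKM in the lines, beside Map2 (-1.92), Neurod1 (-1.65) and Tubb3 (-1.29) and the single increase in Tfap2a (1.93). Of 15 mesoderm genes 1 rose, Hand2 (2.25 ± 0.46), and of 17 endoderm genes 1 rose, Dab2 (1.61 ± 0.35), with medians of -0.13 and 0.58 and no gene lower. Dab2 was at 106 RPKM in MEF, against 1.43 RPKM in ESC and between 2.92 and 6.13 RPKM in the lines. Of 18 trophoblast genes 2 fell, Tfap2c and Fgfr2, and 1 rose, Tead4 (0.93 ± 0.21; median -0.73). Among 3 alkaline phosphatases, Alpl, the activity stained in pluripotent colonies, fell from 176 RPKM to between 103 and 127 RPKM (-0.69 ± 0.16). Alppl2, listed at 0 in ESC, was at least 16.4-fold higher in the mean of the lines.

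Sex-linked genes differed too. Of 16 Y-linked and X inactivation genes 4 rose and 1 fell (median 0.74). Eif2s3y, the Y copy of a translation factor, was at 3.48 RPKM in ESC, at 26.3, 33.5, 18.6 and 28.7 RPKM in the lines and at 30.3 RPKM in MEF (2.90 ± 0.35, adjusted p = 0.0104, edgeR). Ddx3y, an RNA helicase, rose from 3.12 RPKM to 12.2, 15.7, 8.01 and 13.5 RPKM (1.93 ± 0.35, adjusted p = 0.0248, edgeR). Usp9y and Zfy2 were listed at 0 in ESC and were at least 10.9-fold and 9.01-fold higher in the mean of the lines. The X-linked ubiquitin ligase Rlim, an activator of Xist, fell by 1.17 ± 0.14. Uty, read after the fact, was at 3.05 RPKM in ESC and between 3.08 and 5.06 RPKM in the lines (0.43 ± 0.26, adjusted p = 0.309, edgeR), the smallest fitted difference of the Y genes named. On the X chromosome, Mid1 and Erdr1, which lie next to each other near the pseudoautosomal end, moved in opposite directions with small spread. Mid1, a microtubule-associated ubiquitin ligase (chrX:169685199-169990798), was at 30.7 RPKM in ESC and at 2.25, 2.24, 2.66 and 2.61 RPKM in the lines (-3.70 ± 0.13, adjusted p = 0.00045, edgeR). Erdr1 (chrX:170010526-170018797) was at 15.0 RPKM in ESC and at 165, 171, 174 and 164 RPKM (3.45 ± 0.18, adjusted p = 0.00137, edgeR). For both genes the MEF library lay between ESC and the lines, at 7.44 and 38.6 RPKM.

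Imprinted genes showed no common direction: 4 of 54 rose, 7 fell and the median was -0.24. Dio3, a thyroid hormone deiodinase, rose from 0.535 RPKM to 4.29, 5.84, 2.93 and 6.0 RPKM (3.11 ± 0.58, adjusted p = 0.0268, edgeR), while Dlk1, a Notch ligand relative in the same imprinted domain, fell from 1.24 RPKM to between 0.21 and 0.371 RPKM (-2.12 ± 0.31). Cdkn1c, the p57 cell cycle inhibitor, fell by 1.32 ± 0.29. Plagl1 (1.31), Dcn (1.58) and the antisense transcript Kcnq1ot1 (1.02), whose reads cannot be told from those of the opposite strand, were the other 3 higher ones. Dcn, a matrix proteoglycan gene, was at 1.90 RPKM in ESC, between 4.74 and 6.64 RPKM in the lines and 1005 RPKM in MEF. Control iPSC 3 was its lowest line, as in the fibroblast list. Genes of DNA methylation and demethylation (1 higher and 3 lower of 21, median -0.11) included Zfp57, which protects imprints (0.77 ± 0.16), the deaminase Apobec1 (-1.08 ± 0.22), Gadd45a (-0.88 ± 0.21) and the thymine glycosylase Tdg (-0.72 ± 0.14). Of 44 histone modifiers and remodelers, 2 were higher (4.55%) and 5 lower (11.4%), with a median of -0.05. These included the Polycomb genes Bmi1 (1.31 ± 0.27), Ezh1 (-1.16 ± 0.17) and Cbx7 (-1.10 ± 0.17), the remodeler Chd7 (-1.13 ± 0.18) and the demethylases Kdm2b (0.99 ± 0.22), Kdm4b (-1.06 ± 0.17) and Kdm4c (-0.93 ± 0.17). The cell cycle list held 3 higher (7.89%) and 2 lower (5.26%) of 38, near the background, with a median of -0.03. Among them were cyclin D2, Ccnd2, which rose from 9.85 RPKM to between 27.4 and 36.3 RPKM (1.70 ± 0.22), its kinase Cdk6 (1.33 ± 0.26), Ccnd1, the mitotic kinase Aurkb (-1.01 ± 0.16) and the S-phase factor E2f1 (-0.62 ± 0.14). In p53 targets 0 rose and 2 of 27 fell (7.41%, near the background), Mdm4 (-0.74) and Sesn2 (-0.67), with a median of -0.06. In ribosome biogenesis, a class of Myc targets, 0 of 36 passed in either direction with edgeR and the median was 0.29. Of 44 cytosolic ribosomal proteins 1 fell, Rpl30 (-0.83 ± 0.16), and the median was -0.13. Of 34 interferon response and antigen presentation genes 3 fell and 1 rose (median -0.40). Rsad2 (viperin), an antiviral protein, fell from 22.8 RPKM to 1.08, 3.85, 7.43 and 5.30 RPKM (-2.57 ± 0.48), the ADP-ribosyltransferase Parp14 by 1.92 ± 0.20 and the RNA sensor Ddx58 by 1.07 ± 0.24, while Ifi27 rose by 1.24 ± 0.19. Per line, the median of this list was -1.19 for control 3, -0.24 for control 7, -0.18 for PC 5 and -0.15 for PC 13.

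**Figure D4:**
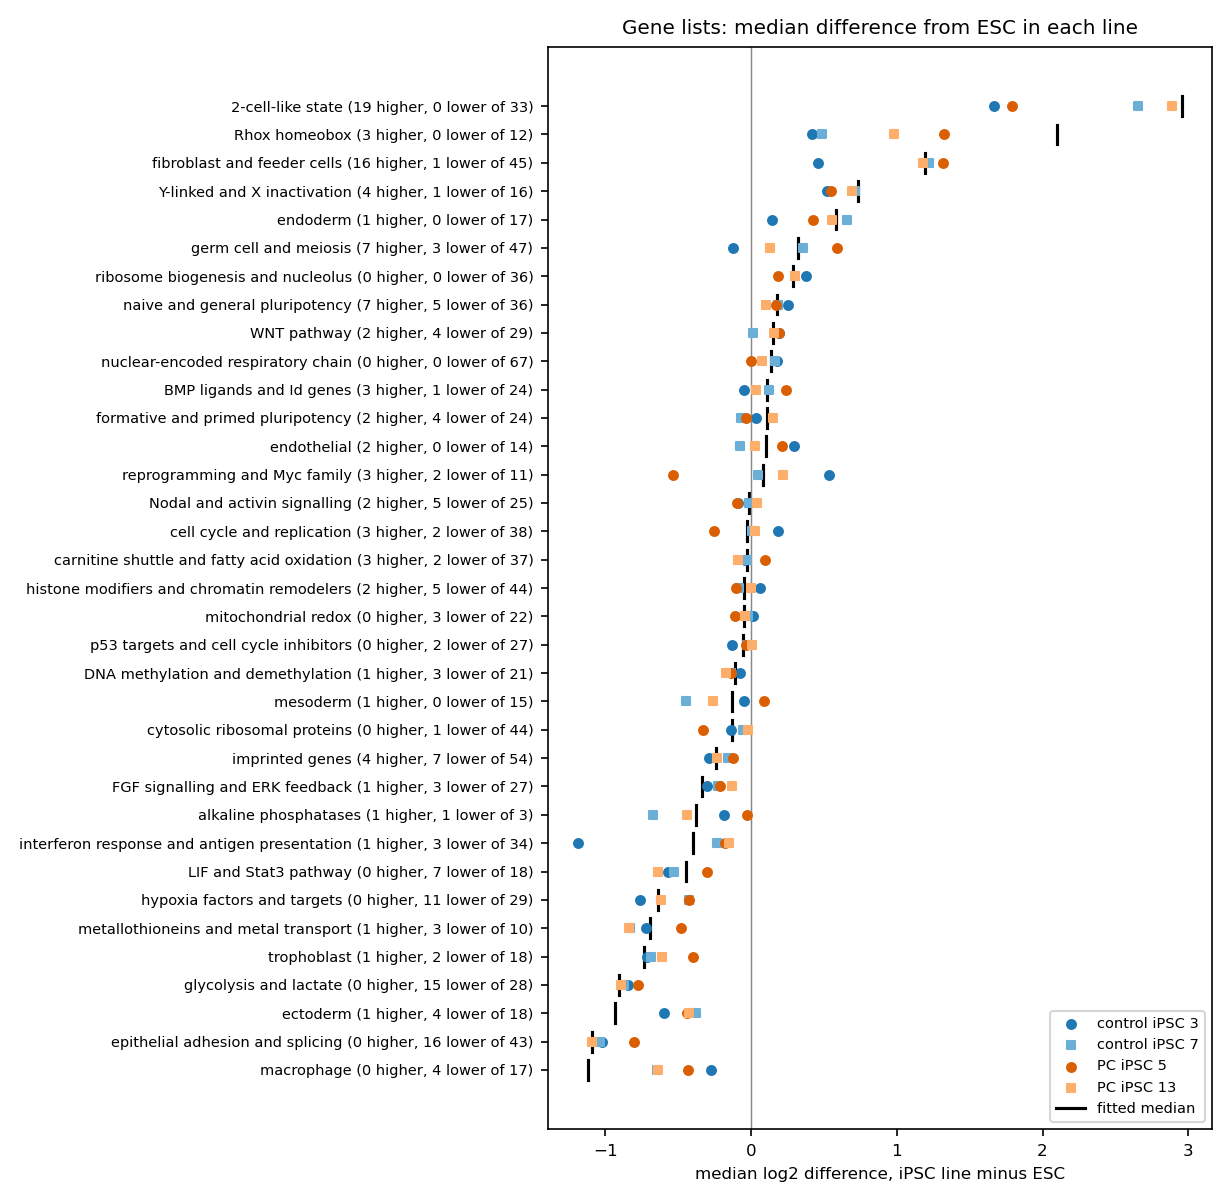
Median log2 difference from ESC over the tested genes of each of 35 gene lists, shown for each iPSC line (points, from scaled counts) and for the fit of all lines (black bars); labels give the genes called higher and lower of those tested. By the fitted bars, the 2-cell-like list lies furthest to the right and the macrophage and epithelial lists furthest to the left, while the leftmost single point is the interferon list in control iPSC 3 (-1.19); for lists of low genes the fitted bar lies outside the points, as the 2 scales treat counts near 0 differently.

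Among called genes with at least 10 RPKM in the lines or in ESC, the largest increases and decreases also included genes outside these groups. Apart from genes with predicted names, Eno1b had the largest increase, from 1.06 RPKM in ESC to 240, 206, 155 and 210 RPKM (7.53 ± 0.36, adjusted p = 0.00128, edgeR). It is a near-identical copy of the glycolytic gene Eno1, so the assignment of its reads is uncertain. Rpl39l, a ribosomal protein paralogue known from testis, rose from 5.69 RPKM to between 44.1 and 62.7 RPKM (3.20 ± 0.30), and Cemip, which degrades hyaluronan, from 1.40 RPKM to between 11.8 and 13.9 RPKM (3.17 ± 0.19). Lpar1, a receptor of lysophosphatidic acid (2.44 ± 0.20), and Dcdc2c (2.91 ± 0.56) rose as well. The GPI-anchored antigens Ly6c1 (3.48 ± 0.62) and Ly6a (Sca-1; 2.41 ± 0.56) and the matrix gene Ogn (2.65 ± 0.57) rose, and the MEF library held them at 344, 582 and 275 RPKM. In each of these 3, control iPSC 3 was the lowest line, as in the fibroblast list. Decreases included Prph, a neuronal intermediate filament protein, from 11.5 RPKM to between 0.638 and 0.728 RPKM (-4.12 ± 0.27, adjusted p = 0.00305, edgeR), and Rab3il1, an exchange factor for Rab proteins, from 27.7 RPKM to between 1.76 and 3.23 RPKM (-3.64 ± 0.24). Crmp1, a cytoskeletal protein of growing axons (-3.15 ± 0.26), the phospholipid enzyme Cds1 (-2.95 ± 0.27), Calca, which encodes calcitonin and CGRP (-2.84 ± 0.51), the flippase Atp10a (-2.75 ± 0.31), the actin bundler Espn (-2.71 ± 0.21), the keratin Krt42 (-2.60 ± 0.39) and the glycosyltransferase B3gnt7 (-2.5 ± 0.31) fell too.

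The range among the lines was about as wide in called genes as in all tested genes. The test takes its scatter from these lines, so a narrow range in called genes is partly set by the test. The range over the 4 lines was under 1 log2 unit in 1535 of the 1713 called genes (89.6%), and its median was 0.45 in called and 0.41 in tested genes. Over 13546 genes, the distance to ESC (root mean square of the log2 differences) came to 0.70 for control line 3, 0.78 for control line 7, 0.69 for PC line 5 and 0.79 for PC line 13. PC iPSC 5 was the nearest line to ESC in 45.5% of called genes and control iPSC 3 in 36.3%, against 11.2% for PC iPSC 13 and 7.06% for control iPSC 7. Apart from Lefty1 and Rsad2, the called genes with the widest range among lines, given 10 reads in each, were 1700013H16Rik, Htr5a and Pramel6. Htr5a, a serotonin receptor gene, was at 0.0257 RPKM in ESC and at 3.44, 4.13, 0.828 and 2.91 RPKM in the lines, with PC iPSC 5 the lowest. Pramel6, of the 2-cell-like list, was at 0.628 RPKM and at 3.06, 7.59, 15.4 and 8.15 RPKM, with PC iPSC 5 the highest. The 2 lines nearest to ESC were 1 control and 1 PC line.

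Taken against the same ESC library, the PC lines had 426 genes higher (2.59%) and 429 lower (2.61%), and the control lines 529 higher (3.22%) and 627 lower (3.82%), by edgeR. Both contrasts share the ESC library, so their values are set side by side only. Klf4 differed by 1.87 ± 0.23 in PC and 2.13 ± 0.23 in control lines, Myc by 3.81 ± 0.58 and 3.61 ± 0.57, Epcam by -2.03 ± 0.16 and -2.03 ± 0.16, Esrp1 by -3.99 ± 0.32 and -3.61 ± 0.32, and Lefty1 by -5.28 ± 0.68 and -5.36 ± 0.68. Between PC and control lines directly, edgeR called 0 genes, with 385 at an unadjusted p under 0.05. That count does not show that the 2 kinds of line are alike.

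Chromosome 11 stood apart from the others. Its median gene differed from ESC by -0.43 and -0.41 in the control lines 3 and 7, by -0.41 in PC line 13 and by -0.02 in PC line 5. In the fit of all lines it was -0.31, with 31 genes higher (2.29%) and 124 lower (9.17%) of 1352 tested. Medians of the other autosomes lay between -0.04 and 0.16, with 3.54% to 6.80% of genes higher and 3.02% to 8.94% lower. The X chromosome had a median of 0.28. The number of copies of chromosome 11 was not measured. The part of this chromosome in the counts above was not tested beyond leaving it out. That fit called 1742 of 15106 genes, 1554 of them shared with the full fit. Of the 1713 calls of the full fit, 155 lay on chromosome 11. Without chromosome 11, PC iPSC 5 was the nearest line to ESC in 42.6% of called genes and control iPSC 3 in 38.0%. Their root mean square distances to ESC were then nearly equal, at 0.693 for PC iPSC 5 and 0.694 for control iPSC 3.

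**Figure D5:**
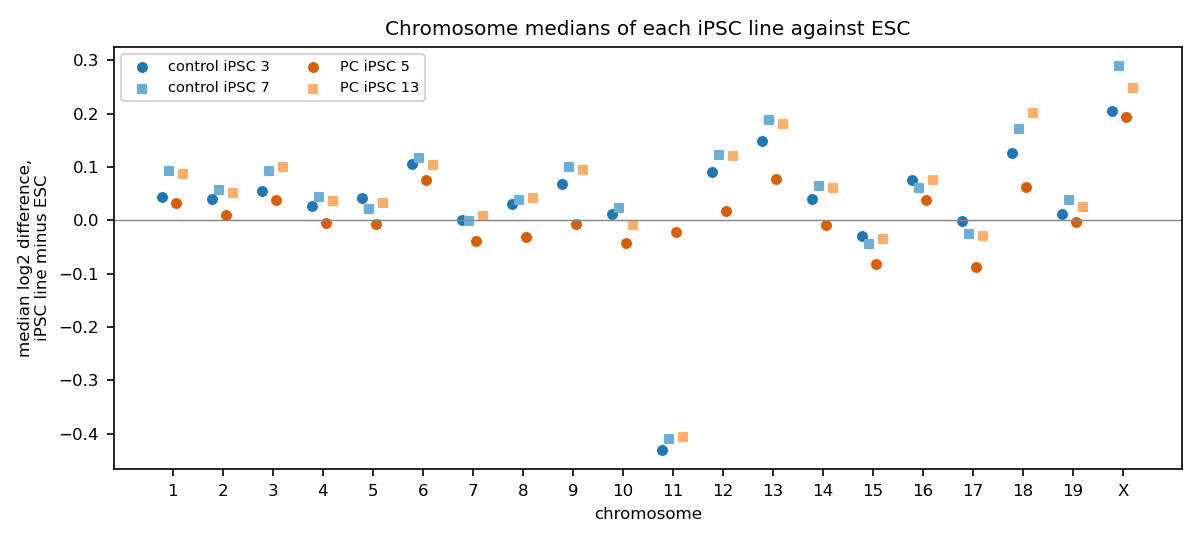
Median log2 difference from ESC over the genes of each chromosome (x axis) in each iPSC line (points); the grey line marks no difference, and chromosome Y, with few genes, is not drawn. On chromosome 11, control iPSC 3, control iPSC 7 and PC iPSC 13 lie between -0.43 and -0.41 and PC iPSC 5 lies at -0.02.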

How the data were processed

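RNA of 6 mouse libraries was sequenced after an mRNA library kit, per the labels' protocols. The deposited series table holds, per the file headers, the whole-number count of uniquely assigned reads per gene and the library total, and a coverage value per gene (the share of its length under reads, slightly above 100% for 2 values). RPKM values were deposited by the authors, as counts scaled by gene length and library total, and 93 of 19330 genes follow another length than the table's. Per the submitters' processing notes, CASAVA 1.8.2 and mm10 were used, with no step named. The sources used here name no aligner, annotation or use of strand.

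Counts were tested with edgeR 4.0.16 (R 4.3.3; quasi-likelihood, TMM, its expression filter, 16435 genes, Benjamini-Hochberg adjustment, threshold 0.05) in a model of 4 group means over 6 libraries with 2 residual degrees of freedom and tested on simulated data with known changes. DESeq2 1.42.0 and limma 3.58.1 served as alternatives, as did other scalings and filters, leaving out each line, MEF or chromosome 11. Positions are those of GRCm38, found by gene ID for 19239 genes. Line differences use scaled counts with a small prior, and a count of 0 was set to 3 reads for folds.

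Genes were named by a rule: the given markers and core factors, the 15 largest changes each way among called genes with at least 10 RPKM and no predicted name, up to 4 called members per list, the 5 widest ranges among lines, and runs of at least 4 called neighbours outside chromosome 11. Further called list members, and the genes marked so in the text, were added once their values were known. The comparison, its markers and the 35 lists (955 tested genes) were chosen with earlier results of these data known. Among all list members, tested or not, 28 genes were shared between lists. Some results are not reported here.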

Additional observations from a re-analysis of the deposited data

Results flagged for a closer look

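Each named gene was checked for a line far from the other 3, by the gap to its nearest neighbour over the whole range of the 4 lines. With 204 genes checked, chance alone marks about 1 in 20 groups of this size (11 were found), and the line apart was PC iPSC 5 in 8 of them and control iPSC 3 in 3. PC iPSC 5 held Nanog at 473 RPKM (others 388 to 401, ESC 316), Crmp1 at 1.79 RPKM (others 1.09 to 1.16, ESC 11), Wnt7b at 1.2 RPKM (others 0.301 to 0.388, ESC 4.43), Acsl4 at 5.54 RPKM (others 4.28 to 4.38, ESC 7.69), Slc30a1 at 5.57 RPKM (others 3.67 to 3.85, ESC 7.56), Chd7 at 4.13 RPKM (others 2.83 to 3.02, ESC 6.87) and Neurog1 at 1.54 RPKM (others 0.111 to 0.324, ESC 4.45). It also held Krt18, the keratin 18 gene, at 42.7 RPKM, with the others at 11.8 to 15.2 RPKM and ESC at 47.5 RPKM. In all of these but Nanog, PC iPSC 5 was the line nearest to ESC. Control iPSC 3 held Nnt at 0.473 RPKM (others 0.0141 to 0.0674, ESC 5.39), Eras at 3.8 RPKM (others 2.11 to 2.38, ESC 8.11) and Bnip3 at 38.4 RPKM (others 48.4 to 49.2, ESC 132).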

How the results depend on the processing

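The 1713 calls (774 higher, 939 lower) came to 1832 with DESeq2's size factors in edgeR, 2014 with no filter, 1576 at a mean RPKM of at least 1, 1958 without MEF and 1742 without chromosome 11. DESeq2 called 2367, of which 1310 were higher (55.3%, against 45.2% in the edgeR fit). With the iPSC lines as 1 group and MEF left out, 2440 were called, 1171 of them higher. limma on log2(RPKM + 1) called 11 (3 higher, 8 lower), and limma on genes with a mean RPKM of at least 1, an alternative chosen after seeing the data, 1398 (613 lower; 56.2% higher). Leaving out 1 line gave 1781 to 2873 calls, 798 to 1449 higher and 983 to 1455 lower, with 2873 without control iPSC 3, 2734 without control iPSC 7, 2566 without PC iPSC 5 and 1781 without PC iPSC 13. The cause was not tested. No gene called in both the edgeR fit and an alternative had opposite signs. Of 166 called genes looked at singly, 161 lost their call with limma on all genes, 22 of 153 with limma on the filtered genes, 15 without PC iPSC 13 and 0 to 6 otherwise. Without PC iPSC 13, edgeR's adjusted p was between 0.05 and 0.0694 for Crat, Ddx58, Gm2022, Krt19, Ly6a, Neurod1, Obox3, Ogn, P4ha1, Postn, Slc39a8, Usp9y, Wnt3, Zfy2 and Zic5. Other calls lost were Ogn, Ly6a, Postn, Tead4 and 1700013H16Rik without PC iPSC 5, Gpx4 without either control line, and Mycn, Krt19, Obox3, P4ha1, Postn and 1700013H16Rik at a mean RPKM of at least 1. DESeq2 did not call Wnt3, Neurod1 and Nphs1os. Slc39a8 and C1qc were lost with MEF left out, and Zic5, Neurog1 and C1qc with the iPSC lines as 1 group and MEF left out. Without chromosome 11, 1700013H16Rik was lost. Depth limits the test to large changes at low counts. No paired analysis was possible because the groups compared share no replicate numbers.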

Other observations

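Outside chromosome 11, 5 runs of at least 4 neighbouring tested genes were called in 1 direction, and they held 23 genes. A run on chromosome 13 (chr13:93616891-94195410) held Bhmt and Bhmt2, which pass a methyl group from betaine or S-methylmethionine to homocysteine, and Dmgdh, the mitochondrial dehydrogenase that handles the dimethylglycine formed in the betaine reaction. Dmgdh was at 0.192 RPKM in ESC and at 6.64, 5.02, 4.41 and 6.14 RPKM in control 3, control 7, PC 5 and PC 13 (4.80 ± 0.45, adjusted p = 0.00633, edgeR), with no read in MEF. Bhmt went from 0.602 RPKM to between 3.77 and 5.46 RPKM (2.95 ± 0.38) and Bhmt2 from 0.24 RPKM to between 1.53 and 2.74 RPKM (3.02 ± 0.56). The neighbours Arsb and Lhfpl2 followed with 1.19 ± 0.24 and 0.81 ± 0.16.

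On chromosome 7 (chr7:30434980-30488623), 4 neighbours were lower: Kirrel2 (-2.51 ± 0.27) and Nphs1 (-2.31 ± 0.29), adhesion proteins known from the kidney slit diaphragm, Aplp1 (-1.17 ± 0.13) and Nphs1os (-2.18 ± 0.49), an antisense gene whose reads cannot be told from those of Nphs1 without strand. Clusters with zinc finger genes were higher on chromosome 4 (chr4:147443114-147812229), where Zfp534 rose from 17.5 RPKM to 51.5, 52.7, 37.9 and 46.4 RPKM (1.38 ± 0.19, adjusted p = 0.015, edgeR), and on chromosome 7 (chr7:42609514-43227252), where Zfp936 rose from 2.2 RPKM to between 4.74 and 7.54 RPKM (1.51 ± 0.27). Members of such clusters are similar in sequence, so the split of their reads is uncertain. In both clusters PC iPSC 5 was the lowest of the lines for the gene named. The fifth run, on chromosome 12 (chr12:87874072-88321762), held 4 genes known by predicted names, with differences from 2.91 to 3.89.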
